A study of Mus musculus with 24 samples.

Results

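The cells compared here were C2C12 myoblasts, an established mouse muscle precursor line, in which either *Baf180* or *Brd9* had been knocked down (KD) with a short hairpin RNA. All 6 *Baf180* KD libraries of the series were set against all 6 *Brd9* KD libraries, 12 of its 24 libraries. Each KD line had 2 replicates without added metal (NT), 2 with 100 µM CuSO4 and 2 with 50 µM ZnSO4 for 48 h, and treatment was a term of the model. Libraries from cells with a scrambled hairpin (scr) took no part in the tests, and their levels are given beside some genes as a reference point. RNA was sequenced in bulk after removal of ribosomal RNA. The labels call the cells primary myoblasts, and a protocol in the labels names transfection with Lipofectamine. The study's methods describe C2C12 cells selected with puromycin as a stable population. The study lists 2 hairpins each for *Baf180* and *Brd9*. The sample titles do not say which was used or whether replicates share a hairpin. Differences between the 2 lines that do not come from the hairpin's target cannot be told apart from those that do. The p-values measure the spread between replicates of these lines.

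SWI/SNF complexes use ATP to slide or eject nucleosomes, and mammalian cells assemble them in several forms around the same ATPase core. PBAF is the form that carries Baf180, a protein with a row of bromodomains that bind acetylated histones, together with Baf200, Brd7 and Phf10. The non-canonical form, ncBAF, carries Brd9, another bromodomain protein, with Bicra or Bicral in place of the subunits that define the others. In the muscle lineage, Myf5 and MyoD mark dividing myoblasts, and myogenin is switched on as they leave the cell cycle and start to build sarcomeres.

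Both KDs could be read from their own transcripts. *Pbrm1*, which encodes Baf180 (GRCm38 chr14:31019138-31121592, plus strand), was at 42.2, 60.1 and 78.8 CPM in *Baf180* KD cells (lowest, median and highest of the 6 libraries). In *Brd9* KD cells the same 3 values were 151, 194 and 235 CPM, so the lines did not overlap. The difference, *Baf180* KD minus *Brd9* KD here and throughout, was -1.73 (SE 0.09, adjusted p = 8.44e-10) on the log2 scale by edgeR's quasi-likelihood test. CPM is the usual unit of counts scaled to library size, here after TMM scaling, and adjusted p-values are Benjamini-Hochberg values over all genes tested. *Brd9* itself (chr13:73937811-73960895, plus strand) was at 35.8, 37.9 and 45.6 CPM in *Baf180* KD cells and 13.8, 16.6 and 18.3 CPM in *Brd9* KD cells, a log2 difference of 1.26 (SE 0.08, adjusted p = 4.02e-09). It too separated the lines in every library. In the scr libraries *Pbrm1* ran from 100.5 to 240.4 CPM and *Brd9* from 27.3 to 32.6 CPM.

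A difference between the lines was called for 6404 of the 15453 genes tested (41.4%) at an adjusted p under 0.05, with 3472 higher in *Baf180* KD cells (22.5% of genes tested) and 2932 lower (19%). Genes called in this way are referred to as DEGs. Most of the differences were small. Of all DEGs, 902 differed by more than 2-fold, of which 592 were higher in *Baf180* KD cells, and 182 by more than 4-fold, of which 107 were higher. For 2850 genes (18.4%) the 6 libraries of one line did not overlap the 6 of the other. The higher and lower shares of these were 11.6% and 6.85% of genes tested. The line accounted for 43.2% of the variance of log2 CPM over all genes tested, the treatment for 17.9%, the interaction of both for 9.42% and replicates for 29.4%. The split between higher and lower DEGs depended on a correction for GC content and transcript length, which left 2833 higher and 3778 lower (42.9% higher against 54.2% without it). That correction moved the median log2 difference over all genes tested from 0.00 to -0.04, and the later counts under it include this shift. The split also depended on the scaling, with 49.6% higher under RLE in place of TMM scaling and 49.6% with DESeq2.

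Among the remaining SWI/SNF subunits, differences were small next to those of the targeted genes. *Phf10*, a histone-reading subunit of PBAF, was at 75.3, 87.7 and 96.6 CPM in *Baf180* KD and 115, 118 and 124 CPM in *Brd9* KD cells, a log2 difference of -0.48 (SE 0.05, adjusted p = 1.07e-06). *Arid1a*, which encodes the cBAF subunit Baf250a, was at 206, 242 and 265 CPM against 305, 321 and 339 CPM, a difference of -0.41 (SE 0.05, adjusted p = 1.32e-05). Neither gene's libraries overlapped between the lines, and both genes were lower in *Baf180* KD cells. *Bicral*, one of the ncBAF scaffold genes, differed by -0.19 (SE 0.05, adjusted p = 0.00485), also without overlap, and *Arid1b*, the paralog of *Arid1a*, by 0.19 (SE 0.04, adjusted p = 0.00268) in the opposite direction. The call of *Arid1b* was lost once GC content and length were corrected for. *Arid2*, which encodes Baf200, was at 153, 178 and 198 CPM and 158, 167 and 175 CPM and was not called (difference 0.09, SE 0.05, adjusted p = 0.118). *Brd7* of PBAF and *Dpf2* of cBAF were lower, with log2 differences of -0.13 and -0.17. Both calls were lost without Zn replicate 2 of *Baf180* KD or Zn replicate 1 of *Brd9* KD, and that of *Brd7* in 8 of 25 alternative settings in all. Of 15 shared subunits tested, 1 was higher (*Bcl7b*) and 4 were lower (*Smarca2*, *Ss18*, *Ss18l1* and *Actl6a*). Once GC content and length were corrected for, none was higher and 9 were lower, and *Smarca2* lost its call in 9 of 25 alternative settings. The ATPase gene *Smarca4* was not called, with a difference of -0.01 (SE 0.05, adjusted p = 0.832).

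**Figure D1:**
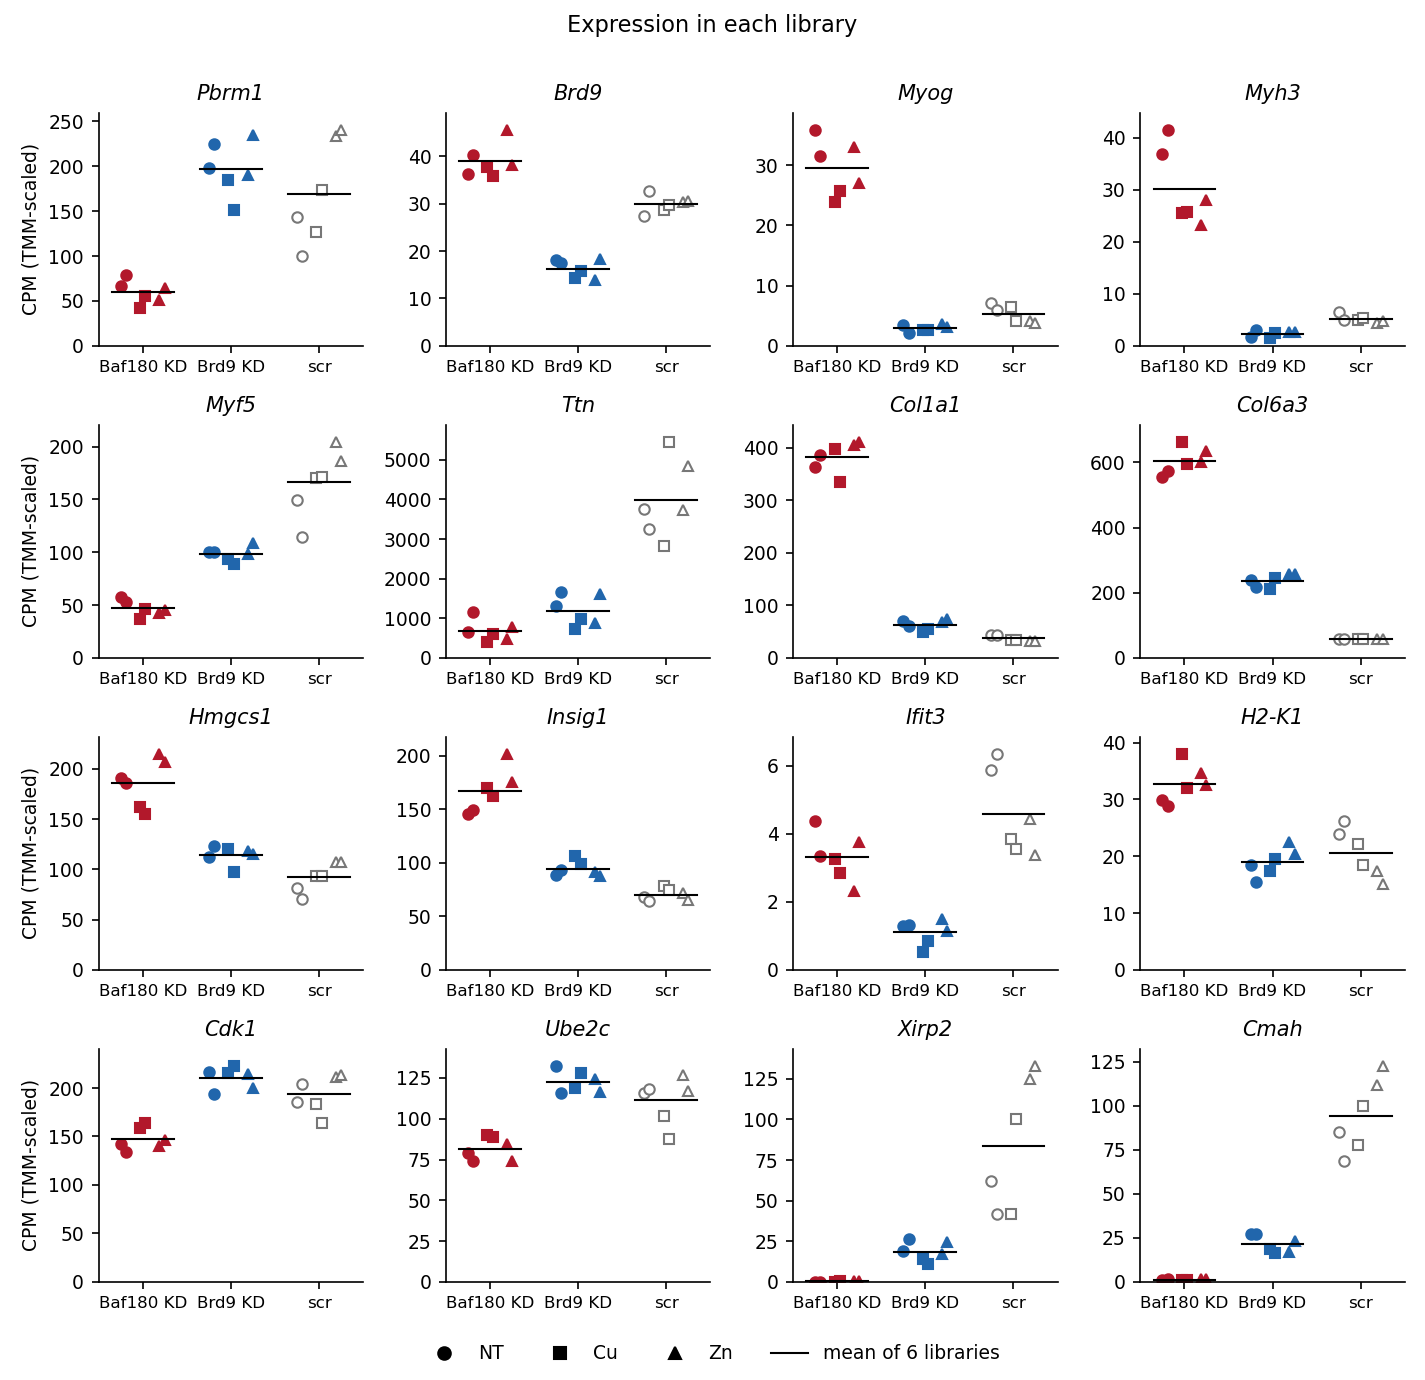
Level of 16 genes in each library, in CPM on a linear axis that starts at 0, for the scr, *Baf180* KD and *Brd9* KD lines. Each marker is 1 library, its shape gives the treatment (NT, Cu or Zn), and the horizontal line is the mean of 6 libraries. *Pbrm1* sits lowest in *Baf180* KD cells and *Brd9* lowest in *Brd9* KD cells, *Myog* and *Myh3* are highest in *Baf180* KD cells, and *Xirp2* and *Cmah* are near 0 there.

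Genes of muscle differentiation differed strongly between the lines. *Myog*, the gene of myogenin (chr1:134289989-134292548, plus strand), was at 24, 29.3 and 35.8 CPM in *Baf180* KD cells and at 2.15, 2.93 and 3.57 CPM in *Brd9* KD cells. Every *Baf180* KD library lay far above every *Brd9* KD library and above the scr libraries (3.88 to 7.11 CPM). The log2 difference was 3.29 (SE 0.10, adjusted p = 3.89e-12), and within treatments it was 3.54 without metal, 3.23 with Cu and 3.13 with Zn. *Myod1*, which encodes MyoD, was higher as well, at 103, 112 and 131 CPM against 72.4, 80.9 and 94.6 CPM (difference 0.45, SE 0.05, adjusted p = 3.7e-06). *Myf5* went the other way. It was at 36.3, 46 and 57.3 CPM in *Baf180* KD cells, 88.8, 99.2 and 109 CPM in *Brd9* KD cells and 115 to 204 CPM in scr cells, a difference between the KD lines of -1.07 (SE 0.07, adjusted p = 9.49e-09). Of the 10 myogenic transcription factors tested, 5 were higher (*Mef2c* and *Mef2d* among them), 1 was lower and 4, *Pax7* among them, were not called. *Mef2d* lost its call in 9 of 25 alternative settings, among them the one that adjusts for GC content and length.

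Of 37 sarcomere and muscle fusion genes tested, 29 were higher in *Baf180* KD cells, 5 were lower and 3 were not called. Their median log2 difference was 1.47, against 0.00 over all genes tested. Over all protein-coding genes tested, 26.4% were higher and 22% lower, the shares against which this and the later list counts can be read. *Myh3*, the embryonic myosin heavy chain (chr11:67078300-67102291, plus strand), was at 23.3, 26.9 and 41.5 CPM in *Baf180* KD and 1.51, 2.52 and 2.99 CPM in *Brd9* KD cells. That is a log2 difference of 3.68 (SE 0.14, adjusted p = 1.87e-11), or 12.9 times. *Myl4*, the embryonic myosin light chain, ran from 13.3 to 18.6 CPM against 1.22 to 2.75 CPM (difference 2.99, SE 0.12, adjusted p = 4.18e-11), and *Mybph*, a myosin-binding protein of the thick filament, from 9.39 to 16 CPM against 1.38 to 3.03 CPM (difference 2.58, SE 0.13, adjusted p = 3.69e-10). *Acta1*, skeletal muscle actin, was higher by 1.34 (SE 0.06, adjusted p = 1.85e-10), *Tnni1*, the slow troponin I, by 2.30 (SE 0.14, adjusted p = 3.16e-09) and *Mymk*, the membrane protein that drives myoblast fusion, by 1.53 (SE 0.14, adjusted p = 2.45e-07). *Myh8*, the perinatal myosin, was almost absent from *Brd9* KD cells, with 4 reads over all 6 libraries against 228 in *Baf180* KD cells. No library of one line overlapped the other for any of these genes.

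The 5 genes of the list that were lower in *Baf180* KD cells were further from the scr level there as well. *Ttn*, the gene of the giant sarcomere spring titin, was at 413, 627 and 1163 CPM in *Baf180* KD, 719, 1137 and 1663 CPM in *Brd9* KD and 2831 to 5452 CPM in scr cells. The ranges of the KD lines overlapped, and the difference was -0.81 (SE 0.17, adjusted p = 0.00139). *Xirp1*, whose product binds actin at cell junctions of striated muscle, was at 19.9, 24.8 and 29.7 CPM against 50.5, 53.5 and 60.7 CPM (difference -1.14, SE 0.06, adjusted p = 1.35e-09) and at 184 to 257 CPM in scr cells. *Actn3*, *Synpo2l* and *Des* made up the rest of the 5, with differences of -0.61, -0.27 and -0.16, and the call of *Des* was lost when NT replicate 2 or Zn replicate 2 of *Baf180* KD or NT replicate 1 or Zn replicate 1 of *Brd9* KD was left out, with values between -0.14 and -0.13. Summed over the list's 40 genes, the level was 2432, 2654 and 3251 CPM in *Baf180* KD cells and 2628, 3230 and 3705 CPM in *Brd9* KD cells. The scr libraries had 6628 to 8702 CPM, above both KD lines. Without the 5 lower genes the summed level was 656, 680 and 780 CPM against 431, 452 and 480 CPM, and from 604 to 811 CPM in scr cells. The 5 were left out by their calls in these data, so the higher sum of the rest follows in part from that choice. In bulk RNA, fewer cells of a type and less RNA per cell cannot be told apart.

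The promoters of this list were looked at because its members moved together. Promoter sequences came from RefSeq (GRCm38.p6) for 10333 of the 15453 genes tested, 250 bases before each start site, and each motif was sought on both strands. The letters CAGCTG, an E-box of the kind that myogenic factors bind, stood in 41.4% of the 29 sarcomere and fusion promoters found, against 11.7% of all promoters. Over all DEGs, these letters stood in 14.5% of the promoters of higher genes and 11.4% of those of lower ones. Among DEGs over 2-fold the shares were 19.2% and 16.6%. *Myh3*, *Myl4* and *Myh8* lacked the letters, and *Des*, which was lower, held them. Whether the letters go with the difference between the lines was not tested. The TATA letters TATAAA were in 27.6% against 6.54%, the TEAD letters GGAATG in 27.6% against 10.5%, and the MEF2 letters CTA and TAG with any 4 bases between them, a match to which can hold the TATA letters, in 10.3% against 2.71%. Here and below, the promoters shown are those of the list members with the smallest p among those that hold the motif. *Acta1* (chr8:123894776-123895025, minus strand) and *Mybph* (chr1:134193198-134193447, plus strand) are shown as examples, with the E-box in capitals. It starts 221 bases before the start site in *Acta1* and 79 bases before it in *Mybph*.
Acta1: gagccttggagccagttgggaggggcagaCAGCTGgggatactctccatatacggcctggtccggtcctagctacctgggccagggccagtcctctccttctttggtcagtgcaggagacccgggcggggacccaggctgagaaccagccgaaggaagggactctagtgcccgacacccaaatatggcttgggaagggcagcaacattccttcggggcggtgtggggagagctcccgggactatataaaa
Mybph: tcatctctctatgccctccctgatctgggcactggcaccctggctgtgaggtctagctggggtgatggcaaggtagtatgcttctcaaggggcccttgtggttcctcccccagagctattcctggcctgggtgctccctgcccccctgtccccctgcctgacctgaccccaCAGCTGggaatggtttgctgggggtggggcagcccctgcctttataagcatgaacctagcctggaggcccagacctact

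Genes of the extracellular matrix were also mostly higher in *Baf180* KD cells. *Col1a1*, a chain of the fibril-forming type I collagen (chr11:94936224-94953042, plus strand), was at 335, 392 and 411 CPM in *Baf180* KD cells and 49.6, 64.6 and 74.2 CPM in *Brd9* KD cells. The scr libraries lay below both lines, from 33 to 44.4 CPM. The log2 difference was 2.61 (SE 0.07, adjusted p = 7.36e-13). Its partner chain *Col1a2* was higher by 1.53 (SE 0.06, adjusted p = 5.99e-11), *Col6a3*, a chain of the microfibrillar type VI collagen, by 1.35 (SE 0.05, adjusted p = 3.74e-11) and *Col12a1*, which decorates collagen fibrils, by 1.18 (SE 0.05, adjusted p = 4.35e-11). *Col11a1*, a nucleator of fibrils, was at 3.01, 4.49 and 5.59 CPM against 0.25, 0.421 and 0.682 CPM. Of 25 collagen genes tested, 14 were higher, 4 lower (*Col27a1*, *Col4a6*, *Col7a1* and *Col4a2*) and 7 not called, with a median of 0.38.

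Matricellular proteins and proteoglycans divided in a similar way. Of 29 tested, 20 were higher and 4 lower, with a median of 0.65. *Mgp*, an inhibitor of matrix calcification, was at 346, 416 and 430.1 CPM in *Baf180* KD and 107, 132 and 150.1 CPM in *Brd9* KD cells (difference 1.65, SE 0.07, adjusted p = 9.52e-11). *Bgn*, the small proteoglycan biglycan, was higher by 1.35 (SE 0.08, adjusted p = 1.27e-09), *Islr*, a secreted leucine-rich repeat protein, by 1.56 (SE 0.05, adjusted p = 5.72e-12) and *Sparc*, a collagen-binding glycoprotein, by 0.57 (SE 0.06, adjusted p = 6.98e-07). *Tnc* and *Fn1*, which encode the adhesion-modulating tenascin C and fibronectin, were the abundant exceptions. *Tnc* was at 1071, 1155 and 1240 CPM in *Baf180* KD cells and 2138, 2275 and 2446 CPM in *Brd9* KD cells, a difference of -0.99 (SE 0.05, adjusted p = 3.28e-10). *Fn1* was at 9283, 9815 and 10578 CPM against 12758, 13279 and 14328 CPM, a difference of -0.43 (SE 0.06, adjusted p = 4.1e-05), with scr cells higher still (18039 to 23326 CPM). *Ccn2* and *Tnxb* were the other 2 that were lower, and the call of *Tnxb* (log2 difference -1.15) was lost without Cu replicate 1 of either line or Zn replicate 2 of *Baf180* KD.

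Enzymes that cut, crosslink or protect the matrix moved in both directions. Of 25 proteases and inhibitors, 16 were higher and 6 lower (median 0.36). *Adamts2*, which trims procollagen, was at 41.1, 45.9 and 48.3 CPM against 11.1, 14.4 and 17.6 CPM (difference 1.68, SE 0.09, adjusted p = 5.94e-10), and *Mmp14*, a membrane collagenase, differed by 0.57 (SE 0.05, adjusted p = 1.87e-07). *Mmp10*, a secreted stromelysin, was at 0.929, 1.47 and 2.71 CPM in *Baf180* KD, 8.82, 10.7 and 18.1 CPM in *Brd9* KD and 31.2 to 66.4 CPM in scr cells, a difference of -2.93 (SE 0.12, adjusted p = 3.9e-11). The copper-dependent crosslinking enzymes were split. *Lox* was higher by 0.60 (SE 0.05, adjusted p = 4.93e-08) and *Loxl3* by 1.15 (SE 0.06, adjusted p = 9.1e-10), whereas *Loxl2* was lower, at 10.6, 14.6 and 18.3 CPM against 32, 40.3 and 53.7 CPM (difference -1.52, SE 0.09, adjusted p = 3.29e-09). Among 16 integrins, 7 were higher and 2 lower. *Itgb3*, a subunit of the vitronectin receptor, rose by 1.24 (SE 0.06, adjusted p = 1.99e-10).

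**Figure D2:**
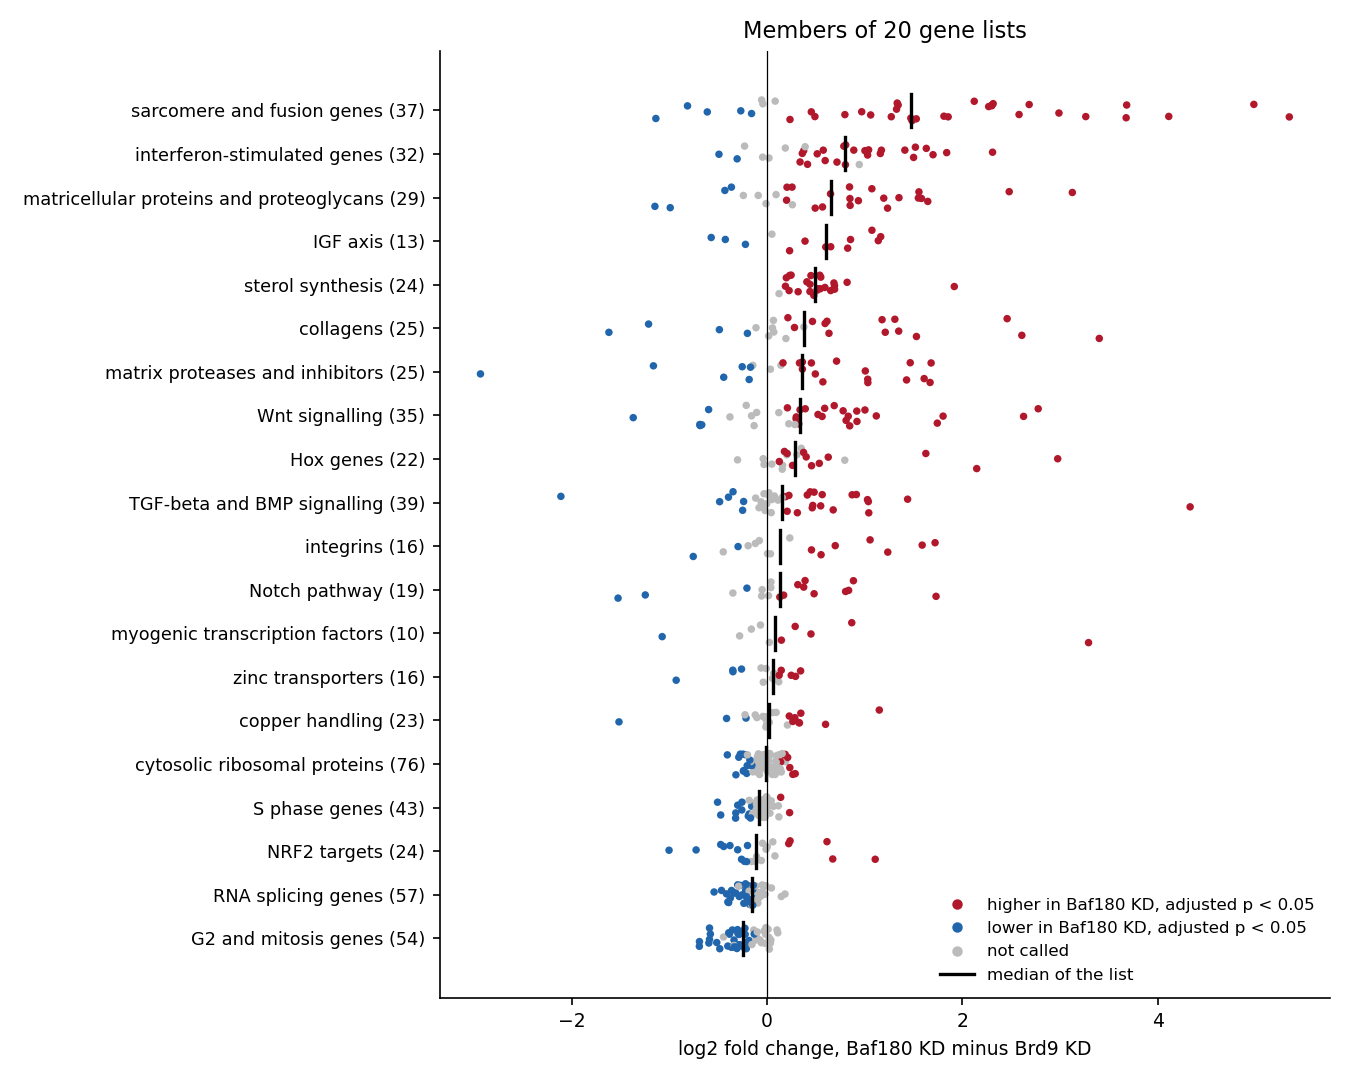
Log2 difference (*Baf180* KD minus *Brd9* KD) of each tested member of 20 gene lists. Each point is 1 gene, colour shows whether it was a DEG and in which direction, and the bar is the median of the list. Sarcomere and fusion genes, interferon-stimulated genes and matrix lists lie mostly to the right of 0, and the G2 and mitosis and RNA splicing lists mostly to the left with smaller differences.

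Signalling genes that act on myoblasts and on the matrix were also shifted. In the Wnt list, 22 of 35 tested genes were higher and 5 lower (median 0.34). *Wnt10a*, a secreted ligand, was at 24.7, 27.9 and 33.1 CPM against 6.6, 8.22 and 9.76 CPM (difference 1.80, SE 0.10, adjusted p = 7.23e-10), and *Axin2*, a common target of the pathway, differed by 0.83 (SE 0.11, adjusted p = 1.85e-05). The agonists of the R-spondin family did not move as one, with *Rspo3* at 2.63 and *Rspo1* at -1.37, both DEGs below 2 CPM. In the TGF-beta and BMP list, 19 of 39 were higher and 6 lower (median 0.16). The ligand gene *Bmp4* was at 39.1, 46.7 and 52.4 CPM in *Baf180* KD and 15.6, 16.9 and 17.9 CPM in *Brd9* KD cells (difference 1.44, SE 0.06, adjusted p = 1.06e-10). *Nog*, which encodes the BMP antagonist noggin, was lower, at 0.365, 0.504 and 0.857 CPM against 1.81, 2.49 and 2.71 CPM (difference -2.11, SE 0.20, adjusted p = 4.82e-07), and scr cells had 7.16 to 11.9 CPM. The pathway's targets *Id3* and *Smad7* were higher by 0.57 and 0.68.

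In the IGF axis, which drives muscle growth, 9 of 13 genes were higher and 3 lower (median 0.60). The receptor gene *Igf1r* was at 231, 235 and 241 CPM in *Baf180* KD cells and 143, 147 and 163 CPM in *Brd9* KD cells, a difference of 0.65 (SE 0.04, adjusted p = 2.62e-09). The abundant binding protein gene *Igfbp5* was at 1305, 2134 and 2456 CPM against 736, 1208 and 1405 CPM, ranges that overlapped across treatments (difference 0.83, SE 0.06, adjusted p = 9.92e-09). *Igfbp2* was lower, with a log2 difference of -0.57 (SE 0.05, adjusted p = 3.63e-07). In the Notch pathway, 10 of 19 were higher and 3 lower. The receptor gene *Notch3* and the effector gene *Heyl* were higher by 0.84 (SE 0.07, adjusted p = 1.09e-07) and 1.73 (SE 0.12, adjusted p = 1.36e-08), and *Hey1*, another effector, was lower, at 2.8, 4.41 and 5.39 CPM against 7.1, 10.2 and 11.7 CPM (difference -1.25, SE 0.10, adjusted p = 1.02e-07).

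In the sterol synthesis list nearly all genes moved the same way. Of 24 genes tested, 23 were higher in *Baf180* KD cells and none was lower, with a median log2 difference of 0.50. *Sc5d* alone was not called (difference 0.12, SE 0.05, adjusted p = 0.0686). Tested against a minimum fold change of 1.5, 2 of the 24 were called higher. *Hmgcs1*, which makes the precursor of mevalonate, was at 155, 189 and 215 CPM in *Baf180* KD cells and 96.9, 117 and 124 CPM in *Brd9* KD cells (difference 0.69, SE 0.06, adjusted p = 1.98e-07). *Insig1*, the sterol sensor that holds the pathway's activator in the membrane, was at 146, 166 and 201 CPM against 87.9, 92.3 and 106 CPM (difference 0.82, SE 0.06, adjusted p = 4.93e-08). *Cyp51*, a demethylase of lanosterol, differed by 0.59 (SE 0.04, adjusted p = 2.99e-08). The activator gene *Srebf2* differed by 0.20 (SE 0.05, adjusted p = 0.0023), a call lost once GC content and length were corrected for. The summed level of the list was 2606, 2980 and 3220 CPM in *Baf180* KD cells and 2111, 2211 and 2369 CPM in *Brd9* KD cells. The scr libraries had 1723 to 1987 CPM.

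Interferon-stimulated genes were higher in *Baf180* KD cells for 24 of 32 tested and lower for 2, with a median of 0.80. Most were at a low level. *Ifit3*, an antiviral protein that works with other IFIT proteins, was at 2.33, 3.3 and 4.37 CPM in *Baf180* KD and 0.516, 1.21 and 1.49 CPM in *Brd9* KD cells (difference 1.63, SE 0.20, adjusted p = 6.92e-06). *H2-K1*, a class I histocompatibility gene, was at 28.8, 32.3 and 38 CPM against 15.5, 19 and 22.5 CPM (difference 0.79, SE 0.07, adjusted p = 3.06e-07). *Tap1*, the peptide transporter for class I molecules, differed by 1.17 (SE 0.16, adjusted p = 1.81e-05) and *Stat2*, a transcription factor of the pathway, by 0.42 (SE 0.05, adjusted p = 1.73e-05). *Isg15*, a ubiquitin-like modifier, was at 1.9, 2.53 and 3.01 CPM against 0.861, 1.61 and 2.35 CPM, overlapping ranges, and its call (difference 0.72, SE 0.23, adjusted p = 0.02) was lost without any 1 of the 4 Cu libraries. *B2m*, the light chain of class I molecules, was not called, with 183 to 316 CPM and 213 to 282 CPM. *Eif2ak2* and *Xaf1* were the 2 lower ones, with differences of -0.31 and -0.49, and *Xaf1* was called in 10 of 25 alternative settings, DESeq2 not among them, and lost its call in 9 of the 12 omissions of 1 library. In scr cells *Ifit3* was at 3.39 to 6.35 CPM and *Isg15* at 8.87 to 15.4 CPM, above most or all libraries of both KD lines.

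The promoters of both lists were compared with all 10333. The letters TTTC and again TTTC after any 2 bases, the core of the interferon response element, stood in 40% of the 25 interferon-stimulated promoters and in 2.36% of all promoters. The letters CCAAT stood in 93.8% of the 16 sterol synthesis promoters and in 37.1% of all, and the sterol response letters TCACNCCAC in 6.25% and 0.948%. Over all DEGs, the interferon letters stood in 3.32% of the promoters of higher genes and 2.19% of those of lower ones. For CCAAT these shares were 35.8% and 37.7%. The shares of the lists describe the lists, and whether the letters go with the difference between the lines was not tested. *Ifit3* (chr19:34583279-34583528, plus strand) and *Stat2* (chr10:128270248-128270497, plus strand) carry the interferon letters, shown in capitals, and *Insig1* (chr5:28071162-28071411, plus strand) and *Cyp51* (chr5:4104698-4104947, minus strand) carry CCAAT, in capitals on either strand. The interferon letters start 156 and 122 bases before the start site in *Ifit3* and 222 in *Stat2*.
Ifit3: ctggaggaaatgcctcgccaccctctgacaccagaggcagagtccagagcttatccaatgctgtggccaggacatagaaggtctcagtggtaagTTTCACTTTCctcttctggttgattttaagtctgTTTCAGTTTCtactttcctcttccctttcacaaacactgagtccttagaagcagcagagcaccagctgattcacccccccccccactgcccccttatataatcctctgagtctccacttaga
Stat2: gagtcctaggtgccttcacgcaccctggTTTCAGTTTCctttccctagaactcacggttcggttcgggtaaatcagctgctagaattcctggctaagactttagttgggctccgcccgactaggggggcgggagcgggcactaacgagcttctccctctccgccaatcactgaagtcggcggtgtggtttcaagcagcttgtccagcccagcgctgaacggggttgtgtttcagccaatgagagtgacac
Insig1: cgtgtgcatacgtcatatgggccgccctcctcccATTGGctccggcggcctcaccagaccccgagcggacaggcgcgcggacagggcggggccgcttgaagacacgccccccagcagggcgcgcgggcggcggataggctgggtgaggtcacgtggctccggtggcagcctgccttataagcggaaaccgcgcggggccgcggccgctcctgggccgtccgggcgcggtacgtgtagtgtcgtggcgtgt
Cyp51: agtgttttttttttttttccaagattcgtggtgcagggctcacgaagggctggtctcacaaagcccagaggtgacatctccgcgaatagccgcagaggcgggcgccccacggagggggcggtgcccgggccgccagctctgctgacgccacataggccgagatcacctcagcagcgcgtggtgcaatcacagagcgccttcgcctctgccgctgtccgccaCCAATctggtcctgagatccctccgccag

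Genes of G2 and mitosis were lower in *Baf180* KD cells by small amounts. Of 54 genes of G2 and mitosis, 33 were lower and none was higher, with a median of -0.24. *Cdk1*, the kinase that starts mitosis, was at 134, 144 and 164 CPM in *Baf180* KD and 194, 215 and 223 CPM in *Brd9* KD cells, with no overlap (difference -0.51, SE 0.04, adjusted p = 1.71e-07). *Ube2c*, which works with the anaphase-promoting complex, was at 73.8, 81.6 and 90.1 CPM against 116, 121 and 132 CPM (difference -0.59, SE 0.06, adjusted p = 4.26e-07). *Mybl2*, a transcription factor of late cell cycle genes, differed by -0.69 (SE 0.05, adjusted p = 6.69e-08) and *Ccnb1*, cyclin B1, by -0.30 (SE 0.05, adjusted p = 0.000274). *Mki67*, the proliferation marker Ki-67, was at 174, 250.2 and 372 CPM against 212, 303 and 446 CPM and was not called (difference -0.34, SE 0.13, adjusted p = 0.0528), although 13 of 25 alternative settings called it lower. Of 43 S phase genes, 12 were lower and 2 higher (median -0.08). The 32.6% called was below the 48.4% of all protein-coding genes, and 22 were lower once GC content and length were corrected for. None of the G2 and mitosis genes passed a test against a minimum fold change of 1.5, whereas 25 of the sarcomere and fusion genes did so in the higher direction.

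Among inhibitors of cyclin-dependent kinases and the D and E cyclins, 4 of 10 were higher and 4 lower. *Cdkn1c*, the imprinted inhibitor p57, was at 0.578, 0.995 and 1.6 CPM in *Baf180* KD and 0.0694, 0.265 and 0.357 CPM in *Brd9* KD cells (difference 1.94, SE 0.32, adjusted p = 0.000133). *Cdkn1a*, which encodes p21, was at 247, 300.2 and 337 CPM against 209.8, 261 and 275 CPM, overlapping ranges with a difference of 0.26 (SE 0.07, adjusted p = 0.0043) that was not called once GC content and length were corrected for. *Ccnd3* was higher by 0.31 (SE 0.05, adjusted p = 9.9e-05) and *Ccnd2* lower, with a log2 difference of -0.38 (SE 0.05, adjusted p = 5.52e-06). RNA splicing genes were lower in 32 of 57 and higher in none (median -0.15), and none passed the test against a minimum fold change of 1.5. *Ddx39b*, a helicase of spliceosome assembly and RNA export, was at 195, 219 and 236 CPM against 256, 283 and 304 CPM (difference -0.36, SE 0.05, adjusted p = 1.38e-05), and *Tra2b*, a splicing regulator, differed by -0.41 (SE 0.07, adjusted p = 0.000229).

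The cell cycle homology letters TTTGAA were in 31.8% of the 44 G2 and mitosis promoters found and in 10.4% of all, and CCAAT in 75% and 37.1%. Over all DEGs, TTTGAA stood in 8.61% of the promoters of higher genes and 11.9% of those of lower ones. Whether either motif goes with the difference between the lines was not tested. *Cdk1* (chr10:69352913-69353162, minus strand) and *Ube2c* (chr2:164769679-164769928, plus strand) are shown with these homology letters in capitals on either strand, which start 71 and 15 bases before the start site in *Cdk1* and 29 bases before it in *Ube2c*.
Cdk1: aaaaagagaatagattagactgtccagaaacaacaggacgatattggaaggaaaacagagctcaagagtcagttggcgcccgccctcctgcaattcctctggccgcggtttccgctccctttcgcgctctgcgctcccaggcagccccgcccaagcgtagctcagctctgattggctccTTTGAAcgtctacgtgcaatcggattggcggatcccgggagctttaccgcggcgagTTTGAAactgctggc
Ube2c: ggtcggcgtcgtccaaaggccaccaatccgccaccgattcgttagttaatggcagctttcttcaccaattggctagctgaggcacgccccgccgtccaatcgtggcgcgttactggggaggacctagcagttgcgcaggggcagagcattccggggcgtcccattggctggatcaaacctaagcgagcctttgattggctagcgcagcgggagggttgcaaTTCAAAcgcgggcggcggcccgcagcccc

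**Figure D3:**
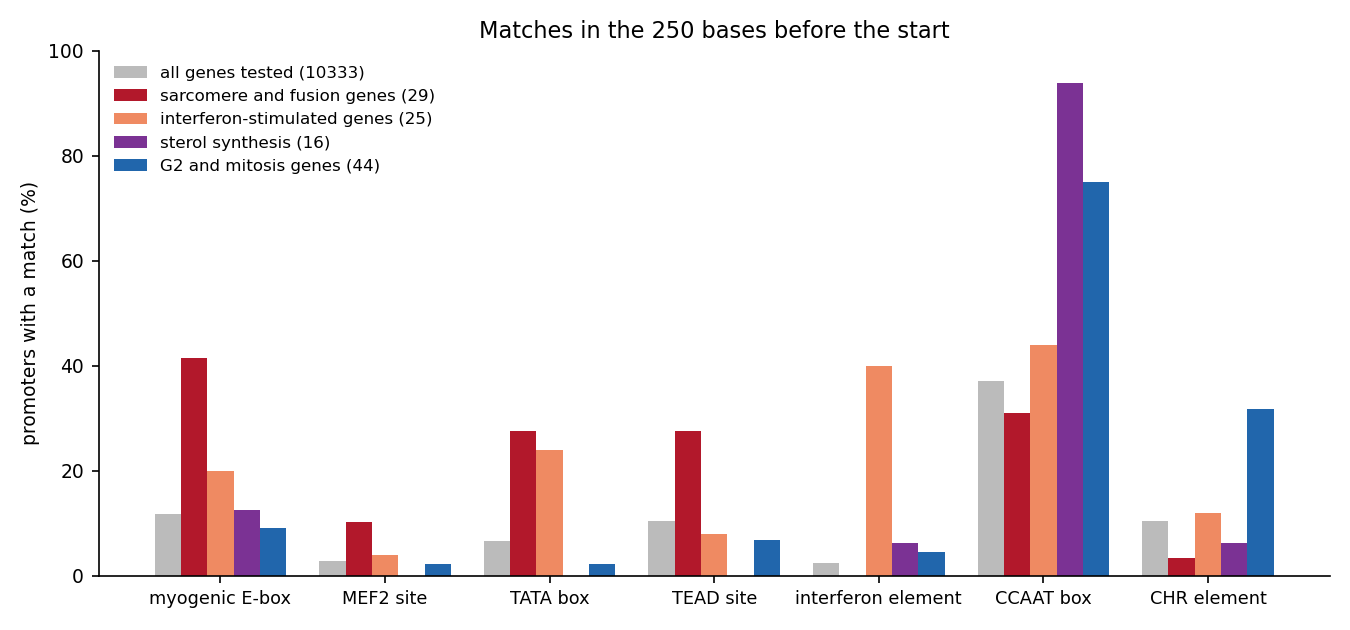
Share of promoters (percent, 250 bases before the start site, both strands) that hold each of 7 motifs, for all genes tested with a promoter and for 4 gene lists. Each bar is 1 set. The E-box stands out in sarcomere and fusion promoters (41.4% against 11.7%), the interferon response element in interferon-stimulated promoters (40% against 2.36%) and CCAAT in sterol synthesis promoters (93.8% against 37.1%). Whether these motifs go with the difference between the lines was not tested.

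Several of the genes with the largest differences were nearly silent in 1 line. *Xirp2*, a relative of *Xirp1* in striated muscle (chr2:67446002-67526614, plus strand), was at 0.135, 0.229 and 0.582 CPM in *Baf180* KD, 11, 18.1 and 26.2 CPM in *Brd9* KD and 41.5 to 133 CPM in scr cells. Its log2 difference was -5.99 (SE 0.21, adjusted p = 1.11e-11), or 63.6 times lower. *Colec10*, a secreted lectin, was at 0, 0.317 and 0.557 CPM against 6.39, 10.5 and 14.7 CPM (difference -5.11, SE 0.26, adjusted p = 4.18e-10). *St8sia2*, which adds polysialic acid to the adhesion molecule NCAM, was at 0.461, 0.652 and 0.728 CPM against 13.3, 14.5 and 17.7 CPM (difference -4.59, SE 0.12, adjusted p = 7.36e-13). *Cmah*, which makes the sialic acid that human cells lack, was at 1.06, 1.26 and 1.75 CPM against 16.3, 21 and 27.4 CPM, and scr cells had 68.7 to 123 CPM. For *Xirp2*, *Colec10* and *Cmah* the scr libraries were nearer to the *Brd9* KD libraries or beyond them.

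For *Atp13a4* and *Add2* scr lay between the lines. *Atp13a4*, a P-type ATPase, was at 0.874, 1.81 and 2.57 CPM in *Baf180* KD, 19.1, 20.5 and 24.1 CPM in *Brd9* KD and 5.06 to 11.1 CPM in scr cells (difference of the KD lines -3.49, SE 0.11, adjusted p = 5.72e-12). *Add2*, a component of the membrane skeleton, had 0.364, 0.475 and 0.65 CPM against 3.43, 4.06 and 5.15 CPM, with 0.772 to 1.28 CPM in scr cells. *Ret*, a receptor tyrosine kinase, *Aim2*, a sensor of cytosolic DNA, *Lingo2* and *Igsf9*, both cell surface proteins of neurons, were lower in *Baf180* KD cells, with log2 differences of -2.78, -2.81, -2.52 and -2.23. *Tubb3*, the neuronal beta-tubulin, was at 11, 12.6 and 14.5 CPM against 59.7, 70.2 and 83.2 CPM (difference -2.50, SE 0.09, adjusted p = 1.74e-11).

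On the higher side, outside muscle and collagen genes, *Lama4*, a laminin chain of basement membranes, was at 22.9, 24.9 and 26.4 CPM in *Baf180* KD and 2.43, 3.07 and 3.4 CPM in *Brd9* KD cells, and the scr libraries had 0.0594 to 0.187 CPM. *Svep1*, a large adhesion protein of the matrix, was at 52.2, 56.1 and 59.5 CPM against 6, 7.68 and 9.08 CPM, with 0.117 to 0.768 CPM in scr cells. Both genes were above scr in both KD lines and highest in *Baf180* KD cells, with differences between the KD lines of 3.05 (SE 0.08, adjusted p = 1.02e-12) and 2.89 (SE 0.09, adjusted p = 2.35e-12). *Fibin*, *Dpyd* (which degrades pyrimidines) and *Pnmal2* differed by 3.24, 2.74 and 2.61. *Gm10800*, a gene model with near-identical copies whose counts are uncertain, had a difference of 4.75 (SE 0.68, adjusted p = 3.95e-05). Its level in *Baf180* KD cells ran from 0.851 to 64 CPM.

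Over all DEGs, the mean of the scr libraries lay nearer to the *Brd9* KD mean for 73.8% of the genes higher in *Baf180* KD cells and for 74.1% of those lower, against 62.4% of all genes tested. The higher DEGs had scr below both KD lines in 1915 of 3472 cases and between them in 1073. For the lower DEGs, scr lay above both lines in 1363 of 2932 cases and between them in 1250. Over all 15453 genes tested, scr lay below both lines for 5766, above both for 5639 and between them for 4048. These positions are a description, since scr had no part in the choice of DEGs.

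The difference between the lines was then taken within each treatment, 2 libraries against 2. Without metal 2653 DEGs were called (17.2% of 15453), with 1678 higher (10.9%) and 975 lower (6.31%) in *Baf180* KD cells. With Cu there were 3429 (22.2%), with 1884 higher (12.2%) and 1545 lower (10%), and with Zn 3025 (19.6%), with 1752 higher (11.3%) and 1273 lower (8.24%). Higher DEGs were 63.2%, 54.9% and 57.9% of these, and 45.5%, 43.9% and 48.2% once GC content and length were corrected for. The shares also moved with the scaling, to 55.6%, 52.9% and 53.8% under RLE in place of TMM scaling. With DESeq2 they were 56.3%, 52.1% and 52.9%. Leaving out 1 library brought the counts down to 1629 without metal (*Baf180* KD NT replicate 2), 1624 with Cu (*Brd9* KD Cu replicate 1) and 1548 with Zn (*Baf180* KD Zn replicate 1). Of the 3472 genes higher in the comparison of all 12 libraries, 3441 had the same sign in all 3 treatments and 1071 were called in each of them. Of the 2932 lower ones, 2898 had the same sign and 562 were called in each. These genes were called from the same libraries, so agreement of sign among them was largely fixed in advance. Over all genes tested, the sign was the same for 74.0% (NT with Cu), 74.5% (NT with Zn) and 77.1% (Cu with Zn). The 3 treatments share no library, and across the 15453 genes their log2 differences correlated with Pearson's r of 0.73 (NT with Cu), 0.74 (NT with Zn) and 0.71 (Cu with Zn). Genes are not independent replicates, so no p is given.

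*Myh3* differed by 4.08 without metal, 3.67 with Cu and 3.30 with Zn, *Col1a1* by 2.51 without metal, 2.80 with Cu and 2.52 with Zn and *Xirp2* by -6.96 without metal, -5.79 with Cu and -5.39 with Zn. *Insig1* differed by 0.70 without metal, 0.70 with Cu and 1.07 with Zn, *Ifit3* by 1.57 without metal, 2.12 with Cu and 1.21 with Zn and *Cdk1* by -0.57 without metal, -0.44 with Cu and -0.53 with Zn. The sarcomere and fusion list had medians of 1.48, 1.54 and 1.39 without metal, with Cu and with Zn, and the G2 and mitosis list -0.23, -0.29 and -0.21. Interferon-stimulated genes ran from 0.42 with Zn to 1.05 with Cu.

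With the usual filter on low counts, a direct test found no gene whose response to Cu or to Zn differed between the lines. For Cu, 0 of 15453 genes passed (0%), with a smallest edgeR adjusted p of 0.742 and 876 genes at an unadjusted p under 0.05. For Zn the count was 0 (0%) as well, with a smallest adjusted p of 0.708 and 793 genes at an unadjusted p under 0.05. DESeq2 called 0 genes for Cu and 1 for Zn, the linker histone gene *H1f1*, which is named here after its values were seen. Its log2 difference was -0.67 without metal, -0.36 with Cu and 0.14 with Zn. With genes of at least 1 count kept, edgeR called 34 genes for Cu and 63 for Zn. The absence of calls does not show equal responses.

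**Figure D4:**
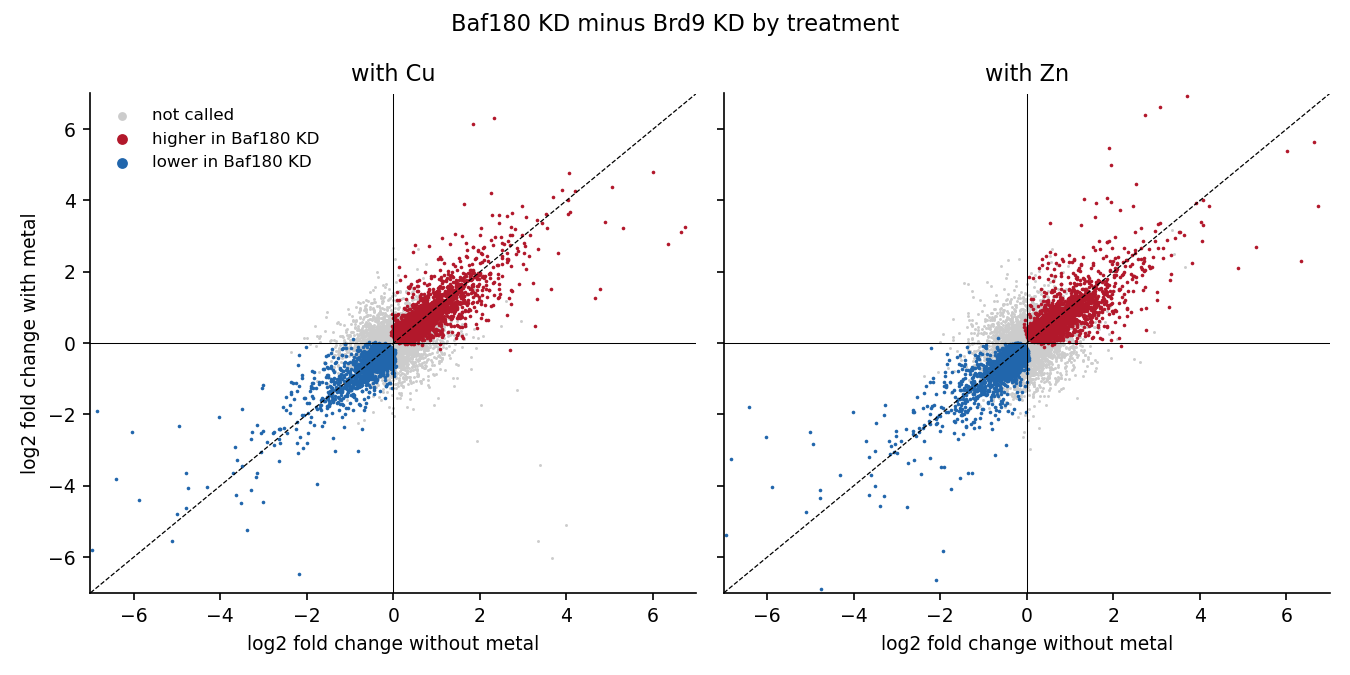
Log2 difference between the lines (*Baf180* KD minus *Brd9* KD) without metal, on the horizontal axis, against that with Cu and that with Zn, on the vertical axes. Each point is 1 of 15453 genes tested, with genes called over all 12 libraries in red (higher in *Baf180* KD cells) and blue (lower), and 10 genes lie beyond the limits of the axes. The points follow the diagonal (Pearson's r of 0.73 with Cu and 0.74 with Zn).

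Of the 3 genes tested in the list of metallothioneins and *Mtf1*, 2 were higher in *Baf180* KD cells. The metallothionein gene *Mt1*, whose product binds Zn and Cu, was at 284 and 227 CPM in the NT replicates of *Baf180* KD cells and 169 and 154 CPM in those of *Brd9* KD cells. With Cu it was at 259.8 and 325 CPM against 226 and 237 CPM. With Zn it was at 728 and 517 CPM against 511 and 448 CPM. In each treatment both *Baf180* KD libraries lay above both *Brd9* KD libraries, and the difference over all was 0.46 (SE 0.09, adjusted p = 0.000791). *Mt2* was also higher, with a difference of 0.47 (SE 0.07, adjusted p = 4.69e-05), and *Mtf1*, the transcription factor that activates both, was not called (-0.09, SE 0.05, adjusted p = 0.18).

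Of 16 Zn transporter genes, 5 were higher and 4 lower (median 0.06), and the 56.2% called was near the 48.4% of all protein-coding genes. *Slc30a4*, a vesicular Zn exporter, was at 106, 156 and 197 CPM in *Baf180* KD and 215, 299.8 and 341 CPM in *Brd9* KD cells (difference -0.93, SE 0.08, adjusted p = 2.91e-07). *Slc39a10*, a Zn importer, was lower, with a log2 difference of -0.35 (SE 0.06, adjusted p = 0.000406), and the exporter gene *Slc30a1* was not called (0.06, SE 0.06, adjusted p = 0.488). Of 23 Cu handling genes, 8 were higher and 3 lower (median 0.02), with *Atp7a*, the Cu exporter, not called (-0.01, SE 0.06, adjusted p = 0.876) and *Slc31a1*, the Cu importer, lower, with a log2 difference of -0.21 (SE 0.06, adjusted p = 0.00544). The call of *Slc31a1* was lost once GC content and length were corrected for. Targets of the oxidative stress factor NRF2 were lower in 10 of 24 and higher in 5. *Nqo1*, a quinone reductase, ran from 58.7 to 123 CPM against 30.7 to 76 CPM (difference 0.67, SE 0.09, adjusted p = 1.15e-05), and *Gsta4*, a glutathione transferase, from 141 to 276 CPM against 214 to 539 CPM (difference -0.73, SE 0.07, adjusted p = 7.5e-07).

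Further lists were measured for the identity and state of the cells. Of 22 Hox genes tested, which record position along the body, 12 were higher and none lower (median 0.28). *Hoxb4* and *Hoxb3* had the largest differences, 2.98 (SE 0.42, adjusted p = 3.75e-05) and 2.15 (SE 0.29, adjusted p = 2.17e-05), at medians of 1.12 and 1.07 CPM in *Baf180* KD cells. Between 3 and 12 Hox genes were called under the alternative settings, with 6 once GC content and length were corrected for and 3 against a minimum fold change of 1.5. Of 16 imprinted genes, 7 were higher and 3 lower, and *Igf2r*, the growth-limiting receptor of IGF2, was lower, with a log2 difference of -0.43 (SE 0.04, adjusted p = 9.5e-07). Of 25 p53 targets, 7 were higher and 7 lower, of 21 glycolysis genes 7 and 4, and of 76 ribosomal protein genes 7 and 13, beside 26.4% higher and 22% lower over all protein-coding genes. Once GC content and length were corrected for, these counts were 5 and 8, 4 and 10, and 2 and 21. Transcripts of the mitochondrial genome were lower for 5 of 10, and 0 to 7 were called lower under the alternatives, with 1 once GC content and length were corrected for.

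Markers of adipocytes, endothelium, epithelium and leukocytes were scarce in both lines. The 5 adipocyte markers summed to at most 0.303 CPM in any KD library, the 5 endothelial ones to at most 2.27 CPM, the 5 epithelial ones to at most 2.73 CPM with *Epcam* at 0, and the 5 leukocyte ones to at most 5.61 CPM with *Cd3e* at 0. Only *Kdr*, *Cd68* and *Krt14* of these markers passed the filter on low counts, and none of them was a DEG. The 5 neural markers, *Tubb3* among them, summed to between 27.8 and 37.5 CPM in *Baf180* KD and between 74.5 and 96.9 CPM in *Brd9* KD cells, and the 6 osteoblast and chondrocyte markers to between 127 and 144 CPM and between 117 and 135 CPM. In these lists *Tubb3* was lower, and *Map2*, a neuronal microtubule protein, and *Col2a1*, the cartilage collagen, were higher, with differences of 0.57 (SE 0.08, adjusted p = 4.44e-05) and 2.46 (SE 0.38, adjusted p = 7.81e-05). *Sox9* was the other one tested and was not called. The part of other cell types in the gene results was not tested. The 10 myoblast markers summed to between 2583 and 2794 CPM in *Baf180* KD cells, between 2720 and 3225 CPM in *Brd9* KD cells and between 3992 and 5395 CPM in scr cells. *Vcam1*, *Musk* and *Myod1* were higher in *Baf180* KD cells, and *Myf5*, *Chrna1*, *Ncam1* and *Des* were lower. *Vcam1*, an adhesion molecule of myoblasts, was at 108, 115 and 136 CPM against 44.9, 50.6 and 66.8 CPM (difference 1.18, SE 0.08, adjusted p = 7.04e-09), and *Chrna1*, a subunit of the acetylcholine receptor, at 224, 267 and 317 CPM against 357, 423 and 471 CPM (difference -0.66, SE 0.06, adjusted p = 2.96e-07).

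The DEGs were unevenly spread over the chromosomes by small amounts. The median log2 difference of protein-coding genes was -0.12 on chromosome 2, where 39.9% of 978 genes were lower and 15.5% higher, and -0.10 on chromosome 4, where 38.3% of 767 were lower and 16.8% higher. Over all protein-coding genes tested, 22% were lower and 26.4% higher. On chromosome 2 the median was -0.13 without metal, -0.12 with Cu and -0.12 with Zn, and all 10 stretches of 20 Mb had a median below 0. Chromosome 15 lay on the other side, with a median of 0.11 and 39.9% of 519 genes higher. There the 3 stretches from 60 Mb onward had medians of 0.16, 0.15 and 0.16, and the 3 before them -0.07, -0.02 and -0.08. Relative to scr, the medians of chromosomes 2 and 4 were -0.16 and -0.14 in *Baf180* KD cells and -0.01 and 0.00 in *Brd9* KD cells. Once GC content and length were corrected for, the medians of chromosomes 2, 4 and 15 were -0.17, -0.16 and 0.04. The correction also moved the median over all genes tested from 0.00 to -0.04, and the chromosome medians include that shift. *Xirp2*, *Ttn* and *Ube2c* are on chromosome 2.

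**Figure D5:**
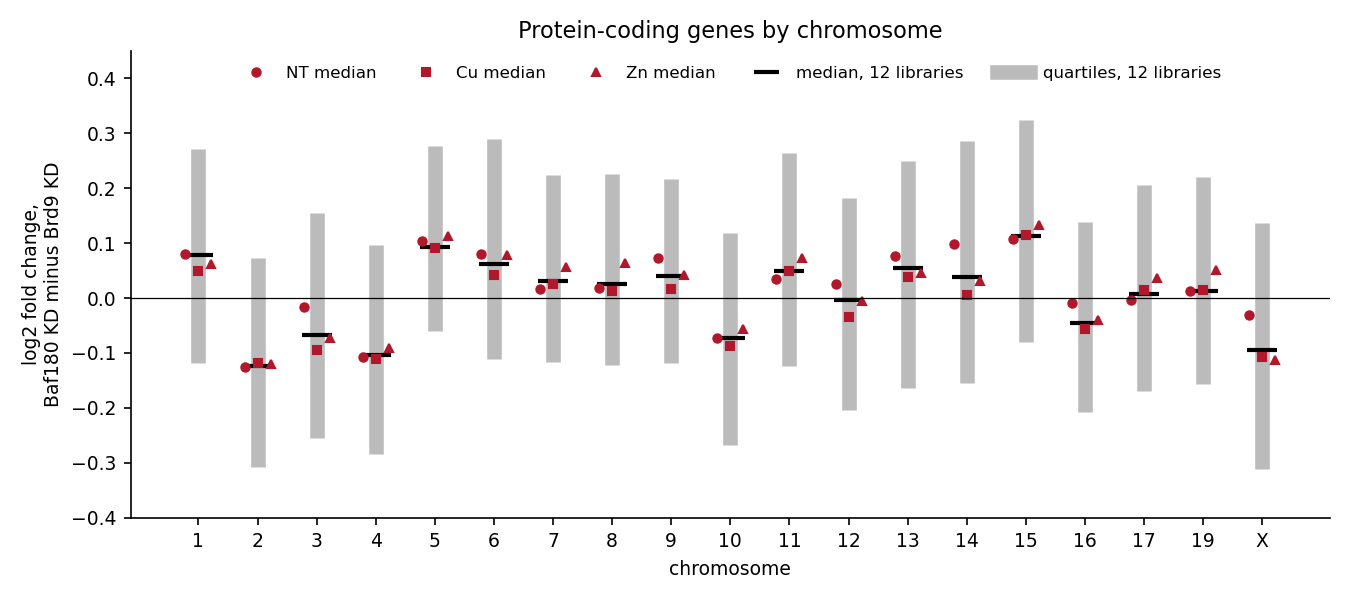
Median log2 difference (*Baf180* KD minus *Brd9* KD) of the protein-coding genes of each chromosome, with the lower and upper quartiles as a bar and the medians within NT, Cu and Zn as markers. Chromosomes 2 and 4 have the lowest medians and chromosome 15 the highest, and chromosome 18 is not shown.

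The libraries held between 12719173 and 33297041 counts (median 22221093), with 20663 to 23361 genes counted at least once. Replicates of a condition differed by more than sampling noise, with chi-square values of 7.93 to 20.0 per degree of freedom. No property of the libraries differed between the lines after adjustment over the 8 tested. Genes counted at least once numbered 22489 on average in *Baf180* KD and 21440 in *Brd9* KD libraries (exact permutation test of the line within treatments, 2-sided, p = 0.037, adjusted p = 0.111). The slope of expression on GC content was 0.149 log2 units per 10 percentage points higher in *Baf180* KD libraries (exact permutation p = 0.0463, adjusted p = 0.111). Mitochondrial transcripts made up 1.30% of counts in *Baf180* KD and 1.62% in *Brd9* KD libraries (exact permutation p = 0.0463, adjusted p = 0.111). The smallest p this test allows is 0.00926, and a single property at that p could not have passed the adjustment over 8. The lack of a call therefore does not show that the libraries were alike. Across the 12388 protein-coding genes, the log2 difference went with GC content at a Spearman's rho of 0.27, and of 0.07, 0.31 and 0.34 without metal, with Cu and with Zn. The part of these properties in the gene results was not tested beyond the correction for GC content and length. Counts on a list of ribosomal RNA genes exceeded 0.5% in 3 libraries, NT replicate 1 and Zn replicate 1 of *Baf180* KD and Cu replicate 1 of *Brd9* KD, and none of the 5 genes tested in that list was called between the lines by edgeR with the usual filter. With genes of at least 1 count kept, 3 of the 5 were higher in *Baf180* KD cells, and without Cu replicate 1 of *Brd9* KD all 5 were. Without all 3 libraries, chosen after the data were seen, 5167 DEGs were called between the lines.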

How the data were processed

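Total RNA was depleted of ribosomal RNA with RNase H, and strand-specific libraries were sequenced in pairs. The authors aligned reads to mm10 with STAR, kept unique alignments and used featureCounts to count the pairs on each gene. The deposited table holds raw counts for 55291 genes in 24 libraries, and the authors' processing notes also name DESeq2 and deepTools. Groups came from sample titles, since a treatment tag contradicts some of them. The counts of the 12 *Baf180* KD and *Brd9* KD libraries were tested with edgeR 4.0.16 (R 4.3.3): TMM scaling, filterByExpr, quasi-likelihood test with treatment and line as terms, Benjamini-Hochberg adjustment and a threshold of 0.05. Contrasts within treatments and of metal responses came from cell means of the 6 conditions. SE is the log2 difference over the root of F. Gene coordinates, biotypes, transcript lengths and GC content came from GENCODE (GRCm38), in which 53691 symbols matched, 399 of them through a RefSeq synonym. Promoters came from RefSeq (GRCm38.p6).

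The members of the comparison and the gene lists were chosen with earlier results of these data known. Named genes were the SWI/SNF subunits, the 12 largest differences in each direction among DEGs with a mean count of at least 50 and no overlap, up to 4 members of each list with the smallest p (lists of up to 12 in full), and genes that the study discusses. *Ttn*, *Xirp1*, *Actn3*, *Myh8*, *Tnni1*, *Mymk*, *Bgn*, *Sparc*, *Tnc*, *Fn1*, *Ccn2*, *Tnxb*, *Adamts2*, *Mmp14*, *Axin2*, *Rspo1*, *Rspo3*, *Nog*, *Id3*, *Smad7*, *Igfbp2*, *Srebf2*, *Sc5d*, *Tap1*, *Isg15*, *B2m*, *Xaf1*, *Eif2ak2*, *Mki67*, *Ccnb1*, *Tra2b*, *H1f1*, *Mest* and the collagens named as lower were added after their values were seen. Alternatives were DESeq2 1.42.0, RLE scaling, other filters, thinned counts, a test against a 1.5-fold change and a spline correction for GC content and length (5 degrees of freedom). A replicate block, all 24 libraries and omission of single libraries were also tried. Some named genes are not reported here.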

Additional observations from a re-analysis of the deposited data

Results flagged for a closer look

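Each library of a line was compared with the other 5 for 484 sets of values, and 18 held a library whose gap to the nearest of the others was over 0.625 of the range. Chance gives such a gap in about 1 of 20 sets when all values come from 1 normal distribution. These sets pool NT, Cu and Zn libraries and are not independent, so that rate need not hold here. Cu replicate 1 of *Brd9* KD held 8 of these. Its share of counts on the ribosomal RNA list was 1.11%, against 0.107 to 0.157% in the others. In it *CT010467.1* was at 11043 CPM (others 1038 to 1491), *Lars2* at 419 (26.3 to 45.3), *Gm24187* at 56.1 (0.214 to 2.58), *Gm15564* at 19.9 (0.136 to 2.12) and *Mir6236* at 6.20 (0.0452 to 0.903). *Tnxb* was at 1.16 CPM there (others 0.425 to 0.571) and *Mest* at 0.990 CPM (0.428 to 0.638).

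Zn replicate 1 of *Baf180* KD stood above the other 5 libraries of its line for *Gm10800* at 64.0 CPM (others 0.851 to 16.3), *Hoxb4* at 3.35 CPM (0.836 to 1.33), *Smarcd3* at 63.8 CPM (50.2 to 53.3) and *Smarca4* at 452 CPM (397 to 413). Cu replicate 1 of *Baf180* KD was high for *Itga7* at 529 CPM (432 to 462) and *Id3* at 112 CPM (82.7 to 87.5). Zn replicate 2 of *Baf180* KD was low for *Mgp* at 346 CPM (409 to 430). In *Brd9* KD cells, NT replicate 2 was low for *Bcl7c* at 37.0 CPM (40.8 to 42.8) and high for *Hoxb3* at 0.625 CPM (0.0904 to 0.227), and Zn replicate 2 was high for *Tap1* at 2.12 CPM (1.18 to 1.45).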

How the results depend on the processing

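Against 6404 DEGs between the lines, DESeq2 called 6323 (3137 higher in *Baf180* KD cells, 3186 lower), RLE scaling 6460 (3207 and 3253) and the correction for GC content and length 6611. With a minimum fold change of 1.5 there were 885 DEGs, and 490, 544 and 441 without metal, with Cu and with Zn. Without the 3 libraries of high ribosomal RNA share, chosen after the data were seen, the counts within treatments were 1259, 1307 and 1102. A filter of at least 1 count gave 34 genes for the difference in Cu response and 63 for Zn, and DESeq2 gave 1 for Zn. The cause was not tested. Leaving out 1 library gave 5846 to 6368 DEGs between the lines, 1629 to 2705 without metal, 1624 to 3497 with Cu, 1548 to 3052 with Zn and 0 for both differences in response. The counts that moved by over 1.5 times were those without *Baf180* KD NT replicate 2 (1629), Cu replicate 1 (1949) and Zn replicate 1 (1548), and without *Brd9* KD NT replicates 1 and 2 (1647 and 1682), Cu replicate 1 (1624) and Zn replicate 2 (1754). Replicate numbers are shared between groups, and the main test did not take them as pairing. The deviations of same-numbered libraries correlated at -0.10 to 0.32 over 15 pairs of conditions, with 10 above 0.1. Between the 2 lines they correlated at 0.24 without metal, -0.06 with Cu and 0.26 with Zn. These values do not settle whether the numbers denote pairs. A replicate block gave 6875 DEGs between the lines, 3181 without metal, 4153 with Cu, 3885 with Zn and 0 for both differences in response. Of 234 named genes tested, none reversed under 25 alternatives, and 25 of the 196 called lost the call under an alternative other than the fold minimum.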
